A study of Mus musculus with 36 samples.

Results

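Gene expression in eWAT, the white fat pad that lies next to the epididymis in male mice, was compared between a high-fat and a low-fat diet. The members are the eWAT libraries whose labels carry the HF or LF diet, 12 of the 36 libraries in the series, with 6 in each group. All animals were male wild-type C57BL/6 mice of the founder (F0) generation, 24 weeks old, that ate chow up to 6 weeks of age. From then on the diet was high in fat for 18 weeks in the HF group and low in fat for 18 weeks in the LF group. The 6 eWAT libraries of a further group, HFLF (9 weeks of high-fat and then 9 weeks of low-fat diet), entered the model only to estimate the spread. Whether 1 library stands for 1 mouse is not stated in the labels, and the series text gives 4 to 6 per group, so p-values measure the spread between these libraries.

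White adipocytes store triglyceride in a large lipid droplet, make part of their fatty acids from glucose, and release them by hormone-stimulated lipolysis. They also secrete hormones, among them leptin, adiponectin and the complement protease adipsin. In obese mice the epididymal depot is known for the arrival of macrophages that surround dying adipocytes and take up lipid, and for the build-up of collagen. RNA was read here as counts per gene, and levels are given as CPM, the count scaled to library size, after TMM normalisation, which corrects each library for its composition. Differences are log2 fold changes of HF over LF ± standard error, and a gene is said to rise, fall or change where edgeR's quasi-likelihood test gave an adjusted p under 0.05 over all genes of the table. Levels are given as the lowest, median and highest of the 6 libraries of a group.

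The libraries held 16.18 to 24.02 M counts in HF and 10.68 to 31.19 M counts in LF. Adipocyte genes were abundant in all of them, and Adipoq lay between 790 and 2980 CPM in HF and between 2110 and 4020 CPM in LF. Several libraries also held genes known from other tissues. Sperm genes were high in HF library 1, HFLF library 6 and LF library 4, epithelial and cilium genes in HFLF library 4 and LF libraries 4 and 5, liver genes most in LF library 5 and also in LF libraries 3 and 4, and smooth muscle genes and Akr1b7 in LF library 3. These are described at the end, and a fit without these 6 libraries (5 HF, 4 HFLF and 3 LF libraries remain), called the fit of the other 12 libraries, is given beside named genes whose call it changed and beside many of the list counts that it moved. That fit was chosen after the values were seen. It also has fewer libraries, so a call lost in it cannot be put down to the transcripts of other tissues alone.

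The comparison asked what the high-fat diet changed in this depot. In HF, most measured macrophage, phagocyte, lysosome, cell-cycle and collagen genes rose, while most genes of fatty acid synthesis, branched-chain amino acid breakdown, the TCA cycle and the respiratory chain fell. edgeR called 6817 of 16690 genes, 40.8% of those tested, with 3441 higher in HF (20.6%) and 3376 lower (20.2%). Of these, 1312 were higher and 1116 lower by at least 1 on the log2 scale, and the median over all genes was -0.02. All HF libraries lay above all LF libraries for 1576 genes (9.44%) and below them for 1067 (6.39%). In the fit of the other 12 libraries 2770 genes were higher and 2433 lower, and 68.4% of the higher and 62.9% of the lower calls were shared. The counts of each gene list are read against these shares. In bulk tissue, fewer cells of a type and less RNA per cell cannot be told apart.

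**Figure D1:**
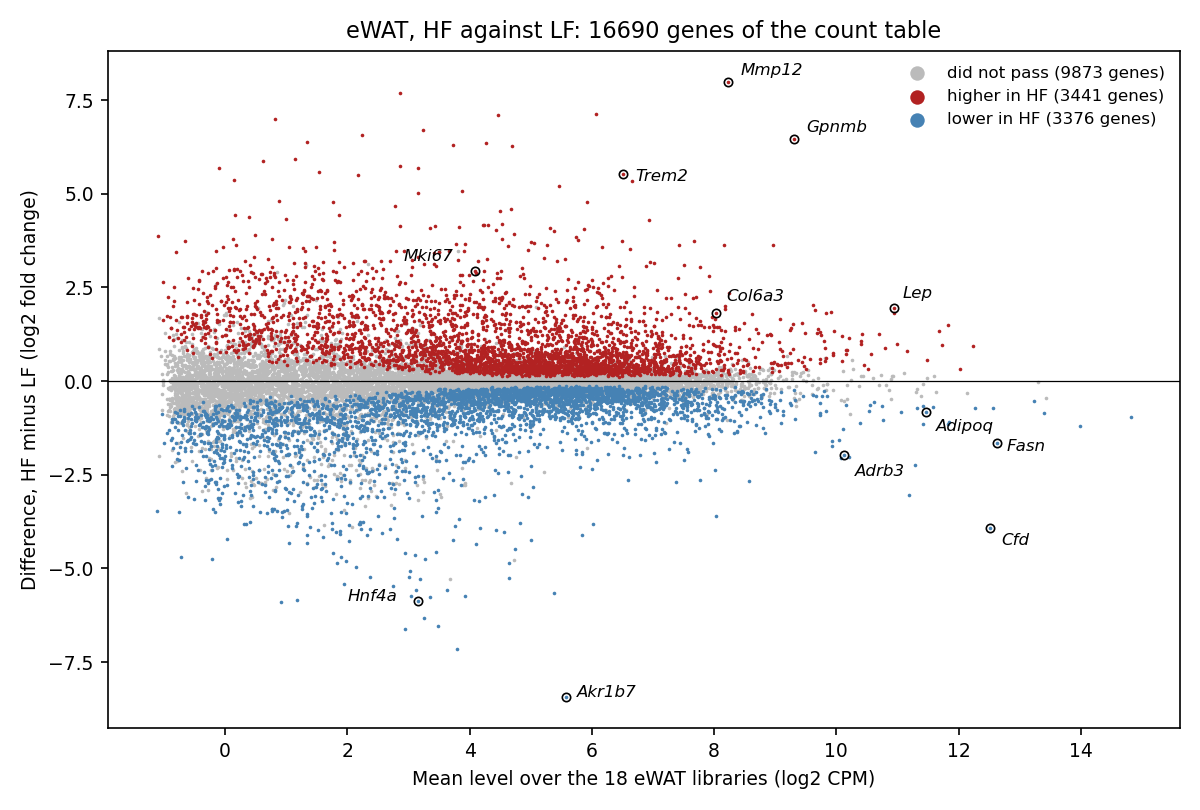
Each point is 1 of the 16690 genes, with its mean level over the 18 eWAT libraries (log2 CPM) on the horizontal axis and the HF minus LF difference (log2 fold change) on the vertical axis. Red points were higher in HF, blue points lower and grey points did not pass. Macrophage genes such as Mmp12, at 8.0, are among the highest rises. The size of the deepest falls, such as Akr1b7 at -8.43, rests on LF libraries 3 to 5.

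Among adipocyte hormones, leptin and adipsin moved in opposite directions. Lep (chr6:29060220-29073877, GRCm38), the satiety hormone whose mRNA follows fat mass, had 2450, 3680 and 4640 CPM in HF, against 321, 683 and 2150 CPM in LF (1.94 ± 0.42, adjusted p = 0.00177). Every HF library exceeded every LF library, and LF libraries 5 and 6 stood above the other LF libraries. Cfd (chr10:79890853-79892655), which encodes adipsin, had 149, 727 and 1510 CPM in HF, against 5050, 11200 and 16800 CPM in LF (-3.92 ± 0.54, adjusted p = 7.46e-05). The groups did not overlap, and HF library 3 was the lowest of all. Adipoq, which encodes adiponectin, had 790, 1700 and 2980 CPM in HF and 2110, 3350 and 4020 CPM in LF (-0.82 ± 0.28, adjusted p = 0.0243). The groups overlapped, and the adjusted p of Adipoq was 0.0529 without HF library 1 and 0.0579 without HF library 4. In the fit of the other 12 libraries it was 0.0647, with a difference of -0.92.

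Of the 24 measured genes in a list of adipokines and secreted factors, 9 rose and 8 fell (20.6% and 20.2% of all genes), with a median of 0.30. In the fit of the other 12 libraries 7 rose and 3 fell. Metrnl, which encodes the secreted factor meteorin-like, rose (2.25 ± 0.31). Nampt, the enzyme and secreted protein of NAD synthesis, fell (-0.85 ± 0.15).

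Genes tied to adipocyte enlargement rose in part. Mest, an imprinted gene whose mRNA marks fat expansion, had 301, 572 and 770 CPM in HF, against 36.8, 73.2 and 312 CPM in LF (2.34 ± 0.47, adjusted p = 0.000897). The overlap was between HF library 3 and LF library 5, and without LF library 5 the difference was 2.96. Sfrp5, a secreted WNT inhibitor, had 208, 427 and 772 CPM in HF and 17.3, 34.0 and 398 CPM in LF (2.01 ± 0.72, adjusted p = 0.0332). Sfrp5 was 3.0 without LF library 5, and its adjusted p lay between 0.0562 and 0.0633 in 7 other fits that each left out 1 library, namely LF libraries 1 to 4 and HF libraries 2, 5 and 6. Fgf13 and Trp53inp2 rose as well, by 2.56 ± 0.53 and 1.23 ± 0.24 on the log2 scale, and Fgf13 by 3.21 without LF library 5. In the expansion list as a whole 7 of 19 genes rose and 0 fell (20.6% and 20.2% of all genes), with a median of 0.47. Npr3, the clearance receptor for natriuretic peptides, had 606, 992 and 1380 CPM in HF and 252, 689 and 1040 CPM in LF and did not pass (adjusted p = 0.116).

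Markers of the adipocyte itself fell more often than they rose. Of 24 markers 12 fell and 2 rose, with a median of -0.54, and 9 fell and 1 rose in the fit of the other 12 libraries. Slc2a4, the insulin-regulated glucose transporter GLUT4, had 33.0, 115 and 180 CPM in HF, against 175, 290 and 318 CPM in LF (-1.26 ± 0.31, adjusted p = 0.00409). Its groups overlapped only between HF library 5 and LF library 4. Cidea, Acvr1c, Cebpa and Plin1 also fell, by 1.67, 1.41, 0.64 and 0.72 on the log2 scale. Cidea and Plin1 encode lipid droplet proteins, Acvr1c the activin receptor ALK7 and Cebpa an adipogenic transcription factor. Pparg, the master regulator of adipogenesis, had 94.1, 139 and 164 CPM in HF and 97.1, 185 and 238 CPM in LF and did not pass (-0.42 ± 0.20, adjusted p = 0.0949). It passed without LF library 4 (-0.55, adjusted p = 0.0175) and in the fit of the other 12 libraries (-0.79, adjusted p = 0.00886). Fabp4, the fatty acid carrier of adipocytes, did not pass (-0.44 ± 0.20), but it passed without LF library 4, HF library 5 or HF library 6 (adjusted p = 0.0484, 0.0267 and 0.0465).

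Lipolysis and insulin signalling genes fell in part. Of 22 genes of lipolysis and its adrenergic control 11 fell and 2 rose (11 and 1 in the fit of the other 12 libraries). Of 22 genes of insulin signalling 11 fell and 4 rose (8 and 1 in the fit of the other 12 libraries). Over all genes 20.2% fell and 20.6% rose. Adrb3, the main adrenergic receptor of mouse adipocytes, had 99.8, 295 and 1050 CPM in HF, against 950, 1830 and 1960 CPM in LF (-1.97 ± 0.49, adjusted p = 0.00454). HF libraries 1, 3 and 4 lay near 100 CPM, and HF library 5 overlapped the LF libraries. Pnpla2, the lipase ATGL, fell (-1.15 ± 0.21) with no overlap, and so did Insr, the insulin receptor (-0.65 ± 0.13). Pde3b, the phosphodiesterase through which insulin restrains lipolysis, fell by 1.07 on the log2 scale. Adra1a, an alpha-1 adrenergic receptor, rose (1.07 ± 0.23). In the list of triglyceride synthesis and fatty acid uptake 10 of 25 genes fell and 2 rose (20.2% and 20.6% of all genes). Pck1, which supplies glycerol phosphate for re-esterification in fat, fell (-2.24 ± 0.47, and -2.86 without HF library 5). Mogat1, an acylglycerol acyltransferase, fell (-2.28 ± 0.42), and Fabp5, a fatty acid carrier also made by macrophages, rose (1.16 ± 0.21).

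**Figure D2:**
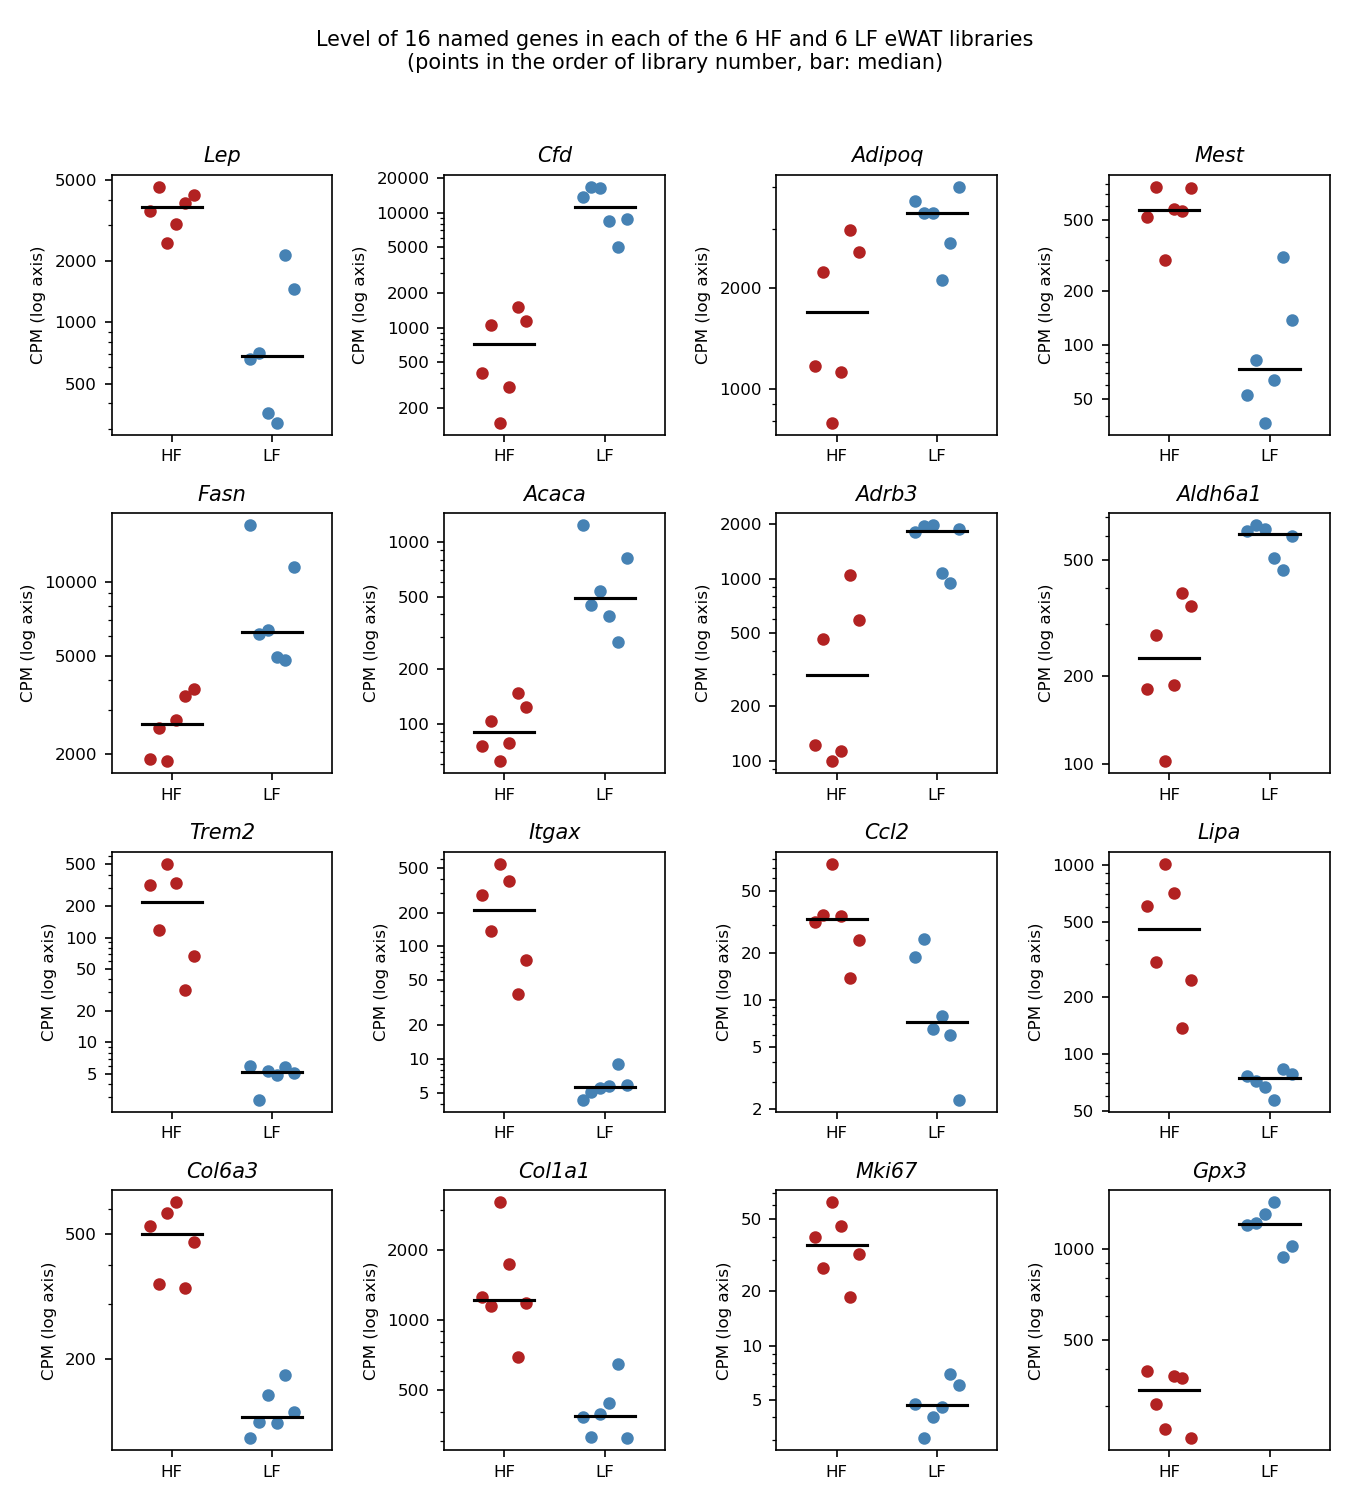
Level in CPM (log axis) of 16 named genes in each library, with the 6 HF libraries on the left in red and the 6 LF libraries on the right in blue, in the order of their library number, and the group median as a bar. Lep lies at 2450 to 4640 CPM in HF and at 321 to 2150 CPM in LF, and Cfd at 149 to 1510 CPM in HF and at 5050 to 16800 CPM in LF. The spread within HF is wide for Trem2 (31.3 to 508 CPM) and Adrb3 (99.8 to 1050 CPM).

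De novo lipogenesis is the making of fatty acids from acetyl-CoA, and its genes had a median of -1.34. Of 24 genes 18 fell and 0 rose (20.2% and 20.6% of all genes). All HF libraries lay below all LF libraries for 10 of them (6.39% of all genes). Acaca, acetyl-CoA carboxylase, had 62.2, 90.6 and 148 CPM in HF, against 283, 494 and 1240 CPM in LF (-2.65 ± 0.35, adjusted p = 5.49e-05). Fasn, fatty acid synthase, had 1860, 2650 and 3660 CPM in HF, against 4810, 6240 and 17000 CPM in LF (-1.65 ± 0.36, adjusted p = 0.0016). Neither gene overlapped between groups, and LF libraries 1 and 6 were the highest for both. HF libraries 5 and 6, whose adipocyte markers summed to 82020 and 77980 CPM (52060 to 97190 CPM in LF), had 148 and 123 CPM of Acaca. The part of adipocyte marker levels in the falls of lipogenic genes was not tested. The elongase Elovl6 (-2.11), the desaturases Fads1 (-1.41) and Scd1 (-0.96), and the citrate cleaving enzyme Acly (-2.04) fell too. The transcription factors of this pathway, Mlxipl (ChREBP) and Srebf1 (SREBP-1), fell by 1.29 and 0.70 on the log2 scale. The calls of pyruvate kinase Pklr and the desaturase Fads2, named after their values were seen, rested on LF libraries 3, 4 and 5. Pklr had 53.4 CPM in LF library 4 and a median of 2.58 CPM in LF, and in the fit of the other 12 libraries the difference was -0.01 for Pklr and -0.13 for Fads2. Pklr lost its call without LF library 4 (-4.57, adjusted p = 0.0576) or HF library 4 (-5.18, adjusted p = 0.0534), and was -6.20 without HF library 3 and -6.07 without HF library 6. In the fit of the other 12 libraries 17 of the 24 lipogenic genes fell.

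Most genes of branched-chain amino acid breakdown, the TCA cycle and the respiratory chain fell. In branched-chain amino acid breakdown, a pathway in which white fat is active, 20 of 24 genes fell and 0 rose (median -0.785). Aldh6a1, of the valine branch, had 102, 231 and 385 CPM in HF, against 460, 613 and 656 CPM in LF (-1.24 ± 0.24, adjusted p = 0.000703). Bcat2, the mitochondrial transaminase that starts the pathway, fell by 1.42, Hsd17b10 of the isoleucine branch by 1.03, and Ppm1k, the phosphatase that activates the branched-chain dehydrogenase, by 0.68 on the log2 scale. In the TCA cycle 20 of 24 genes fell and 0 rose (median -0.53), Suclg2 by 0.99 and Sdha by 0.76. Of 77 nuclear genes of the respiratory chain and ATP synthase 66 fell and 0 rose (median -0.44), among them the complex I subunits Ndufa5 (-0.80 ± 0.11) and Ndufs7 (-0.79 ± 0.12). Of 8 measured mitochondrially encoded genes 6 fell, and 4 fell in the fit of the other 12 libraries. Summed over the TCA cycle list, HF libraries 3, 5 and 6 held 4067, 6502 and 6850 CPM, against 6388 to 10880 CPM in LF. For branched-chain breakdown they held 1446, 3321 and 3083 CPM, against 3326 to 5344 CPM in LF. For nuclear respiratory chain genes they held 7818, 11190 and 10860 CPM, against 10780 to 15660 CPM in LF. Their adipocyte markers summed to 32510, 82020 and 77980 CPM (52060 to 97190 CPM in LF). The part of adipocyte marker levels in these falls was not tested. Ppargc1a, the coactivator of mitochondrial genes, had 1.17, 2.42 and 3.24 CPM in HF and 2.70, 3.97 and 10.9 CPM in LF (-1.24 ± 0.35), and it did not pass in the fit of the other 12 libraries (-0.66, adjusted p = 0.136). In fatty acid oxidation a smaller part fell. There 9 of 30 genes fell and 1 rose (20.2% and 20.6% of all genes), with a median of -0.15. The gene that rose was Cpt1a, the carnitine palmitoyltransferase of the outer membrane (1.01 ± 0.16), and Acot2, a mitochondrial acyl-CoA thioesterase, fell (-0.92 ± 0.11, adjusted p = 2.87e-05). Ucp2, an uncoupling protein that macrophages also make, rose (1.65 ± 0.25) with no overlap.

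**Figure D3:**
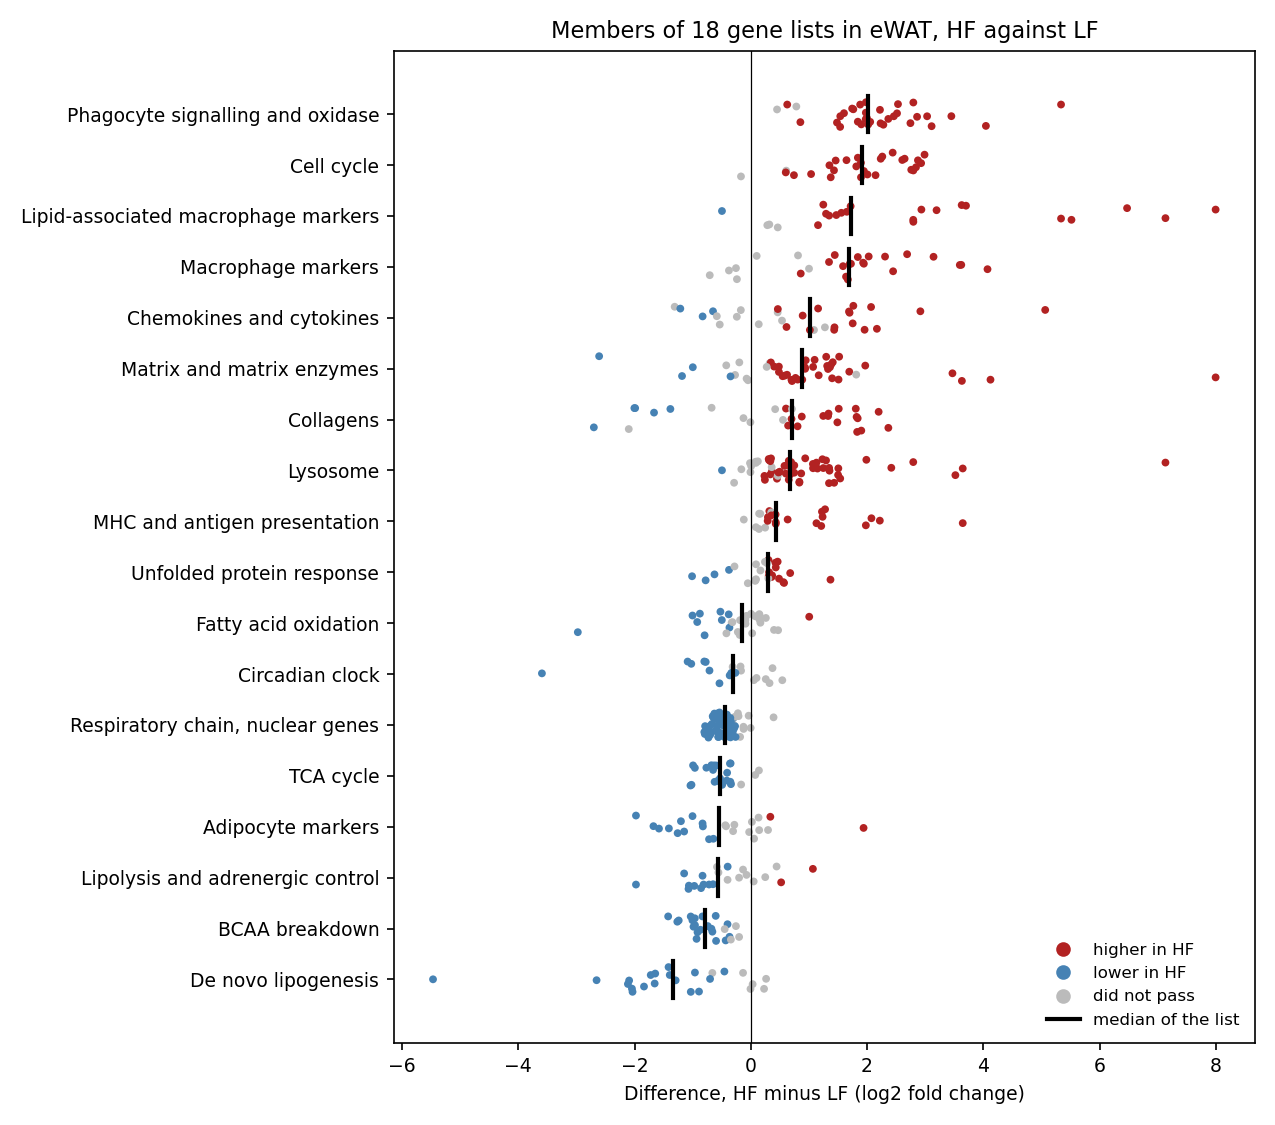
Each point is a gene of 1 of 18 lists, at its HF minus LF difference (log2 fold change), in red where higher in HF, blue where lower and grey where it did not pass, and the black bar is the median of the list. The medians run from 2.01 in the phagocyte list to -1.34 in de novo lipogenesis, and the respiratory chain genes sit close together at a median of -0.44.

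Macrophage and phagocyte genes rose in most members. Of 26 macrophage markers 19 rose and 0 fell (median 1.69), of 34 genes of phagocyte signalling and the oxidase 32 rose and 0 fell (2.01), and of 23 markers of lipid-associated macrophages 19 rose and 1 fell (1.72). In the fit of the other 12 libraries 19, 30 and 19 genes of these lists rose. Trem2 (chr17:48346401-48354147), the lipid-sensing receptor that defines these cells, had 31.3, 219 and 508 CPM in HF, against 2.83, 5.22 and 5.93 CPM in LF (5.52 ± 0.71, adjusted p = 5.2e-05). Itgax, the integrin CD11c, had 37.8, 210 and 543 CPM in HF, against 4.35, 5.66 and 9.09 CPM in LF (5.34 ± 0.71, adjusted p = 6.19e-05). Gpnmb, a lysosomal glycoprotein, had 196, 1160 and 4440 CPM in HF, against 12.5, 16.7 and 28.3 CPM in LF (6.47 ± 0.83). Groups did not overlap for any of the 3 genes, and the differences were 5.5, 5.52 and 6.52 in the fit of the other 12 libraries.

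The size of the rise differed widely within HF. Summed over the macrophage list, HF libraries 1 to 6 held 6326, 4501, 9081, 6724, 2148 and 2560 CPM, against 1204 to 2008 CPM in LF. HF library 3 held the most and HF libraries 5 and 6 came nearest to LF. The summed adipocyte markers ran the other way, with 32510 CPM in HF library 3 and 82020 and 77980 CPM in HF libraries 5 and 6, against 52060 to 97190 CPM in LF. Leaving out HF library 3 brought Gpnmb to 5.88 and Mmp12 to 7.32.

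**Figure D4:**
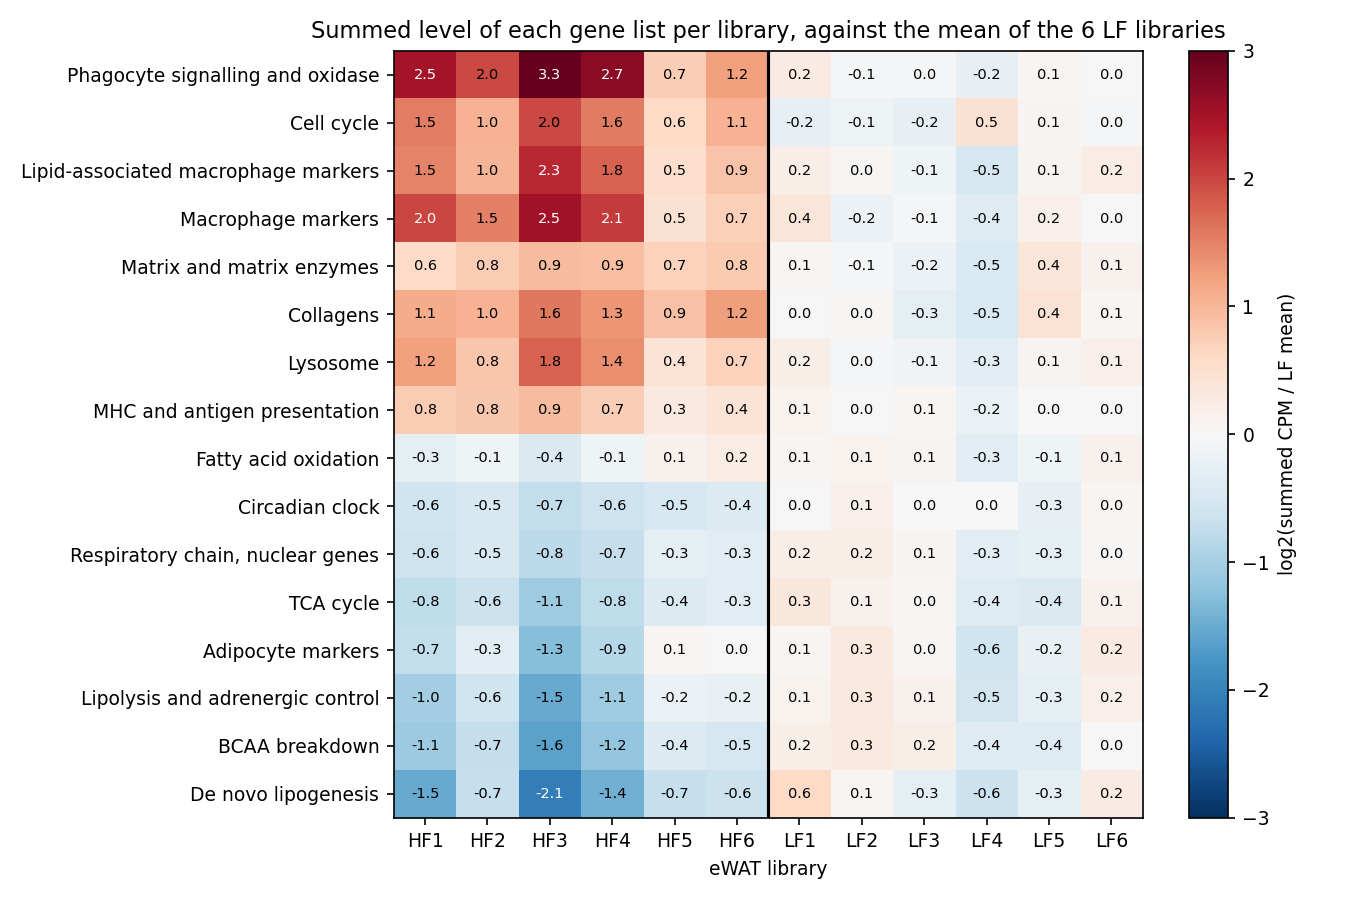
Summed CPM of each list in each library, as log2 of the ratio to the mean of the 6 LF libraries (colour and number), with HF libraries on the left of the line and LF libraries on the right. Colours saturate at 3 in either direction. HF library 3 held 9081 CPM of macrophage markers and HF libraries 5 and 6 held 2148 and 2560 CPM, against 1204 to 2008 CPM in LF.

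General macrophage markers that rose included Cd68, a lysosomal membrane protein (3.62 ± 0.53), Cd84 (4.07 ± 0.54), Clec7a, the beta-glucan receptor dectin-1 (3.60 ± 0.52), and Ccr2, the receptor of recruited monocytes (1.64 ± 0.21). Ccr2 had 61.8, 68.1 and 99.5 CPM in HF and 15.6, 26.0 and 32.0 CPM in LF, with no overlap. The 7 markers that did not pass included the resident macrophage genes Lyve1, Timd4, Cd163 and Mertk, which are named after their values were seen. Lyve1 had 20.5, 45.2 and 113 CPM in HF and 46.2, 68.4 and 98.5 CPM in LF (-0.38 ± 0.29), and Cd163 differed by -0.25 ± 0.23. Without HF library 2, which had the highest Lyve1 and Timd4 levels in HF, both passed as lower, Lyve1 at -0.75 (adjusted p = 0.0147) and Timd4 at -1.09 (adjusted p = 0.0102). Mertk passed as lower without LF library 4 (-0.28, adjusted p = 0.0425). The monocyte receptor Cd14 and Aif1 lay at 0.81 and 1.00, and both passed without HF library 5 (adjusted p = 0.0197 and 0.043), as did Cd14 without HF library 6 (0.0184) and Aif1 without LF library 4 (0.0185) and in the fit of the other 12 libraries (1.12, adjusted p = 0.01).

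The 10 largest rises among genes with a mean of at least 2 log2 CPM were led by the macrophage elastase Mmp12. It had 106, 499 and 1980 CPM in HF, against 1.88, 2.71 and 3.55 CPM in LF (8.0 ± 0.91, adjusted p = 3e-05). Tm4sf19 (7.69), Atp6v0d2 (7.13), Vsig8 (7.12), Gpr50 (6.71), Gdf3 (6.57), Gpnmb (6.47), Rgs1 (6.37), Itgad (6.29) and Tph2 (6.28) followed. Atp6v0d2 is a subunit of the vacuolar proton pump found in osteoclasts and macrophages, Gdf3 a TGF-beta family ligand, Itgad the integrin CD11d and Rgs1 a regulator of G protein signalling in leukocytes. Gpr50 is an orphan receptor of the melatonin receptor family and Tph2 the tryptophan hydroxylase best known from neurons. Tph2 had 12.9, 75.7 and 118 CPM in HF, against 0.167, 0.571 and 2.38 CPM in LF, and Gpr50 3.96, 25.2 and 42.1 CPM in HF, against 0, 0.07 and 0.835 CPM in LF. Of the 10 genes only Itgad overlapped between groups, where the lowest HF library had 1.22 CPM and the highest LF library 1.78 CPM. Without HF library 3 Tm4sf19 stood at 7.05 and Vsig8 at 6.42, without LF library 2 Tm4sf19 at 8.39 and Rgs1 at 6.98, without LF library 4 Gpr50 at 7.76 and Itgad at 7.35, and without LF library 5 Tph2 at 6.91.

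Lysosome genes rose across the organelle, which macrophages use to digest what they engulf. Of 56 genes 45 rose and 1 fell (median 0.68), and 35 rose in the fit of the other 12 libraries. The proton pump subunits Atp6v0a1 (1.43 ± 0.18) and Atp6v1b2 (1.51 ± 0.21), the cathepsins Ctss (3.65 ± 0.49) and Ctsd (1.25 ± 0.24), and the cysteine protease legumain, Lgmn (2.42 ± 0.36), rose with no overlap. Lipa, the lysosomal acid lipase, had 137, 456 and 1010 CPM in HF, against 57.2, 74.3 and 83.2 CPM in LF (2.80 ± 0.42, adjusted p = 0.000113). Of the transcription factors that drive lysosome genes, chosen after the values were seen, Tfeb, Mitf and Tfe3 rose by 0.87, 1.07 and 0.50 on the log2 scale, Mitf and Tfe3 not in the fit of the other 12 libraries (adjusted p = 0.0623 and 0.144). As background, these factors bind an E-box with the core TCACGTG.

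RefSeq promoters (GRCm38.p6, 250 bases before to 50 after the start) were searched for TCACGTG and its reverse complement CACGTGA, which overlap where the letters read TCACGTGA. At least 1 promoter of 12 of the 44 lysosome genes with an entry held the motif (27.3%), against 781 of 12013 genes of the count table (6.5%). The motif was in 11 of the 35 with an entry that rose (31.4%) and in 1 of the 9 others. A match is a description of the letters and not a bound site. The 3 promoters below belong to the risen genes with the motif, 1 annotated start and the smallest p-values, and the capitals mark the motif in each. Glb1 encodes the lysosomal beta-galactosidase, Naglu an enzyme of heparan sulfate breakdown and Atp6v1a the catalytic subunit of the proton pump. They stand at chr9:114400828-114401127 (plus strand), chr11:101069844-101070143 (plus strand) and chr16:44139210-44139509 (minus strand).
Glb1: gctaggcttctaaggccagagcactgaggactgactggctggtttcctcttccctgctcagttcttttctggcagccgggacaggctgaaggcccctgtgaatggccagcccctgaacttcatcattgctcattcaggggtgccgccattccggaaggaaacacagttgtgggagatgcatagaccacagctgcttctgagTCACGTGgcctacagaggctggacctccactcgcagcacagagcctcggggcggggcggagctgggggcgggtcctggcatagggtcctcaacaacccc
Naglu: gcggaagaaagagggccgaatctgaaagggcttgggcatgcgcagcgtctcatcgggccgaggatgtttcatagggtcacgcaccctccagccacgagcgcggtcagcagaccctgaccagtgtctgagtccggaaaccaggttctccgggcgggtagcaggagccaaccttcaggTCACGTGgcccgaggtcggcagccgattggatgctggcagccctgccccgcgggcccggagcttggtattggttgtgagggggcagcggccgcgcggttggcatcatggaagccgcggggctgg
Atp6v1a: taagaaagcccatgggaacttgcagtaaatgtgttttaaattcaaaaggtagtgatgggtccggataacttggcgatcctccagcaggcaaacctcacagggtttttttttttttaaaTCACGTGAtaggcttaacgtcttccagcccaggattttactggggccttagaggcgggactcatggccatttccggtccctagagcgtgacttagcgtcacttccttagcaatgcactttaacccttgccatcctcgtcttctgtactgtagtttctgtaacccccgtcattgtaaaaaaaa
Glb1 had 55.7, 77.3 and 94.9 CPM in HF, against 33.0, 42.3 and 52.5 CPM in LF (0.84 ± 0.13). Naglu had 66.7, 87.0 and 97.6 CPM in HF, against 42.1, 58.3 and 60.2 CPM in LF (0.64 ± 0.10). Atp6v1a had 124, 212 and 406 CPM in HF, against 79.5, 106 and 114 CPM in LF (1.23 ± 0.23). None of the 3 overlapped between groups, and the motif of Atp6v1a reads the same on both strands.

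Genes of cholesterol handling changed in both directions. In the list of cholesterol efflux and LXR targets 7 of 16 rose and 3 fell (20.6% and 20.2% of all genes). In the list of cholesterol synthesis and uptake 7 of 24 rose and 3 fell, with the rises near the share of all genes. Abcg1, a cholesterol exporter, rose (1.6 ± 0.25), as did Pltp, the phospholipid transfer protein (1.79 ± 0.28). Dhcr7, of the last step of synthesis, rose (1.42 ± 0.27), while Fdft1 of the same list fell with no overlap (-0.89 ± 0.17). Apoe, made by adipocytes and macrophages alike, fell to 2970, 3520 and 4120 CPM in HF, against 4710, 6040 and 6590 CPM in LF (-0.73 ± 0.10, adjusted p = 8.98e-05). The groups did not overlap for Apoe. Pltp and Ctsa overlap on opposite strands, and with no strand setting known for the counts, their reads may be mixed. This also applies to Fdft1 with Ctsb, Mest with Copg2, Ucp2 with Dnajb13, Nr1d1 with Thra, Itgad with Cox6a2 and Acsm3 with Eri2, among others.

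Chemokines and cytokines rose in part. Of 29 chemokines and cytokines 16 rose and 3 fell, 10 and 2 in the fit of the other 12 libraries. Il1rn, the interleukin-1 receptor antagonist, had 10, 25.5 and 107 CPM in HF, against 0.612, 0.909 and 2.22 CPM in LF (5.07 ± 0.64, and 4.42 without HF library 3). Ccl2, the chemokine that draws CCR2-bearing monocytes, had 13.8, 32.9 and 74.3 CPM in HF and 2.30, 7.24 and 24.4 CPM in LF (1.70 ± 0.49, adjusted p = 0.0115). The groups overlapped, and the adjusted p of Ccl2 was 0.179 in the fit of the other 12 libraries. Ccl9 (1.96 ± 0.33), Ccl22 (2.17 ± 0.38) and Tnf (1.69 ± 0.37) rose, although Tnf stayed at or under 4.44 CPM in HF and 1.61 CPM in LF. Cxcl10, an interferon-induced chemokine, fell (-0.83 ± 0.25), and so did Ccl25 (-0.65 ± 0.13). In the interferon list 8 of 32 genes rose, which is near the share of all genes (20.6%), and 6 rose in the fit of the other 12 libraries, 13 without LF library 3 and 5 without HF library 5. Oas1a, of the antiviral response, was among them (1.40 ± 0.24).

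Most antigen presentation genes rose, and few lymphocyte markers did. Of 24 genes of MHC and antigen presentation 17 rose and 0 fell (15 and 0 in the fit of the other 12 libraries), among them Ciita, the master regulator of MHC class II (2.08 ± 0.29), and H2-DMb1 of the peptide loading machinery (1.98 ± 0.28). Of 26 T and NK cell markers 6 rose and 0 fell, a count of rises near the share of all genes (20.6%), and 4 rose in the fit of the other 12 libraries. Their median was 0.63, and they summed to 52.94 to 208.7 CPM in HF and 26.66 to 53.99 CPM in LF, Il7r included. Il7r, the interleukin-7 receptor, had 9.80, 52.8 and 142 CPM in HF, against 1.71, 2.14 and 4.58 CPM in LF (4.59 ± 0.59, adjusted p = 4.8e-05). Trac, the T cell receptor alpha constant gene, had 2.39, 5.06 and 7.39 CPM in HF, against 0.587, 1.15 and 2.09 CPM in LF (2.0 ± 0.39). Neither gene overlapped between groups, and the costimulatory receptor Cd28 rose too (1.75 ± 0.39). Of 17 B and plasma cell markers 3 rose and 0 fell, also near that share of 20.6%, and 2 rose in the fit of the other 12 libraries. Their median was 1.23, and they summed to 561.4 to 3575 CPM in HF and 274.2 to 722.5 CPM in LF. Blnk and Cd22, of the B cell receptor pathway, rose by 3.02 and 3.22 on the log2 scale. Il7r and Blnk were both highest in HF library 3 (142 and 139 CPM), the library with the most macrophage markers. Summed B and plasma cell markers were highest in HF library 2 (3575 CPM), where Blnk had 42.2 CPM. Cd22 had 26.9 and 27.3 CPM in HF libraries 2 and 3. Which cells made these transcripts was not tested. Ighm, the immunoglobulin heavy chain, rose by 1.31, but not in the fit of the other 12 libraries (adjusted p = 0.069). HF library 2 held 13 immunoglobulin segment genes at over 10 times their median. Irf8, a transcription factor of dendritic cells and macrophages, rose (2.01 ± 0.26).

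Cell-cycle genes rose together. Of 28 genes 26 rose and 0 fell (median 1.92), and as many did in the fit of the other 12 libraries. Mki67, a marker of dividing cells, had 18.5, 36.1 and 62.3 CPM in HF, against 3.06, 4.66 and 6.93 CPM in LF (2.93 ± 0.29, adjusted p = 2.26e-05). Cdk1 (2.99 ± 0.31), the kinase of mitosis, Top2a (2.84 ± 0.32), a topoisomerase, and Rrm2 (2.61 ± 0.25), of nucleotide synthesis, also rose and did not overlap between groups. The smallest p of all genes belonged to Spc25, a kinetochore protein named after its values were seen, with 6.04, 10.5 and 13.9 CPM in HF, against 0.779, 0.996 and 1.85 CPM in LF (3.21 ± 0.25, adjusted p = 4.2e-06). Which cells divided was not measured.

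Most genes of the extracellular matrix rose, those of collagen VI among them. Col6a3 (chr1:90765923-90843971), the chain whose fragment is endotrophin, had 337, 501 and 632 CPM in HF, against 112, 131 and 178 CPM in LF (1.81 ± 0.17, adjusted p = 1.81e-05). Col6a1 and Col6a2 rose by 1.82 ± 0.20 and 1.84 ± 0.20, also with no overlap. The fibrillar collagens Col1a1 (1.90 ± 0.29) and Col3a1 (1.83 ± 0.26) rose, and HF library 3 held the highest Col1a1 level, 3230 CPM. Of 29 collagen genes 17 rose and 5 fell (median 0.71). The 5 that fell were Col4a6, Col23a1, Col13a1, Col4a4 and Col4a3, named after their values were seen. Their highest LF levels were in LF libraries 3 or 4, and in the fit of the other 12 libraries only Col4a6 still fell (-0.67, adjusted p = 0.0219). Without LF library 3 Col23a1 stood at -0.98. Without LF library 4 Col4a4 and Col4a3 did not pass (adjusted p = 0.0731 and 0.113), and leaving out LF library 5 or any 1 of HF libraries 1 to 4 also ended the call of Col4a3 (adjusted p of 0.0523 to 0.0597).

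In the wider list of matrix proteins and enzymes 33 of 45 genes rose and 4 fell (25 and 3 in the fit of the other 12 libraries). Lox, which cross-links collagen, rose (1.52 ± 0.20), as did Hspg2, the basement membrane proteoglycan perlecan (1.07 ± 0.16), while the gelatinase Mmp9 fell with no overlap (-2.61 ± 0.36). Of 24 genes of TGF-beta and fibrosis signalling 7 rose and 4 fell (20.6% and 20.2% of all genes), with a median of 0.15. In the fit of the other 12 libraries 4 rose and 3 fell. Tgfb1 rose (1.16 ± 0.22), and Acvr1 of the same list fell (-0.44). The summed adipose progenitor markers barely separated, at 2061 to 3079 CPM in HF and 2057 to 2367 CPM in LF. Of these 22 markers 7 rose and 3 fell (20.6% and 20.2% of all genes). In the fit of the other 12 libraries 5 rose and 1 fell. Pdgfrb, a receptor of perivascular cells, rose (0.75 ± 0.11). Hif1a, the oxygen-sensing transcription factor, rose (0.69 ± 0.10), and Vegfa, one of its targets, fell (-1.20 ± 0.28). Of 18 endothelial markers 1 rose and 2 fell (20.6% and 20.2% of all genes), with a median of -0.12. Aplnr, the apelin receptor of endothelium, rose (1.35 ± 0.30), while Flt1 (-0.55) and Prox1 (-1.72) fell. Summed endothelial markers were 1399 to 3430 CPM in HF and 1839 to 2977 CPM in LF.

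Stress, redox and clock genes changed in part. In the unfolded protein response 13 of 27 genes rose and 4 fell (8 and 2 in the fit of the other 12 libraries), with Atf6, a stress sensor of the endoplasmic reticulum, higher by 0.37 ± 0.06 and Asns, asparagine synthetase, lower by 1.01 ± 0.17. Of 27 antioxidant genes 10 fell and 5 rose (20.2% and 20.6% of all genes). In the fit of the other 12 libraries 9 fell and 1 rose. Gpx3, the secreted glutathione peroxidase, had 235, 339 and 392 CPM in HF, against 938, 1210 and 1430 CPM in LF (-1.88 ± 0.18, adjusted p = 1.81e-05). Gsta4, which clears lipid aldehydes, fell (-2.44 ± 0.39). Of 19 clock genes 10 fell and 0 rose, and 5 fell in the fit of the other 12 libraries. Per2, a repressor of the clock, had 21.8, 24.6 and 29.3 CPM in HF, against 34.8, 40.6 and 47.9 CPM in LF (-0.71 ± 0.19, adjusted p = 0.0068), and the groups did not overlap. Nr1d1 (REV-ERB alpha) fell by 1.02 on the log2 scale.

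Further genes with the smallest p-values, named after their values were seen, were Ubd, a ubiquitin-like protein induced by interferon and TNF (5.22 ± 0.48), and Fam83d, of the mitotic spindle (2.02 ± 0.19), both higher. Dok7, an adaptor best known from the neuromuscular junction, had 0.607, 1.11 and 1.96 CPM in HF, against 11, 12.7 and 19.6 CPM in LF (-3.65 ± 0.36). Net1, a guanine nucleotide exchange factor for RhoA, had 49.0, 55.4 and 65.7 CPM in HF, against 200, 400 and 442 CPM in LF (-2.64 ± 0.26). For each of the 4 genes the groups did not overlap. Of 17 measured microRNA processing genes 4 rose and 0 fell, with the rises near the share of all genes (20.6%) and 2 higher in the fit of the other 12 libraries. Ago2 rose by 0.56 ± 0.09, and Ago4, which in the fit of the other 12 libraries had an adjusted p of 0.0681, by 0.59 ± 0.14. Both encode Argonaute proteins that hold microRNAs, and Dicer1 cuts their precursors. Dicer1 had 36.1, 39.9 and 44.4 CPM in HF and 39.9, 44.4 and 47.2 CPM in LF and did not pass (-0.15 ± 0.07, adjusted p = 0.0879), but it passed without HF library 4 (-0.18, adjusted p = 0.0462). Of 26 let-7 targets 7 rose and 4 fell, near the shares of all genes, with Nras at 0.72 ± 0.10 and Hmga1 at 2.04 ± 0.41.

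The size of the largest falls by fold rested on LF libraries 3, 4 and 5. The 10 largest falls with a mean of at least 2 log2 CPM were Akr1b7, Ppp1r1b, Kcnk1, Clic6, Prom2, Hnf4a, Cdhr5, Pipox, Wnk2 and Cnn1. Akr1b7 (chr6:34412334-34423142), an aldo-keto reductase abundant in the mouse vas deferens, had 0.123 to 0.998 CPM in HF, against 842 CPM in LF library 3 and 0 to 1.78 CPM in the other 5 LF libraries (-8.43 ± 2.31, adjusted p = 0.00813). Without LF library 3 its difference was -0.06 (adjusted p = 0.979). Cnn1, the smooth muscle protein calponin, had 0.274 to 5.05 CPM in HF, against 638 CPM in LF library 3 and 1.23 to 31.3 CPM in the other LF libraries, and its difference was -2.79 without LF library 3. Myh11, the smooth muscle myosin, had 22.7 to 99.3 CPM in HF, against 1590 CPM in LF library 3 and 44.9 to 196 CPM in the other LF libraries. Crisp1, an epididymal secretory protein, had at most 5.16 CPM in HF, against 218 CPM in LF library 3 and at most 0.724 CPM in the other LF libraries. Myh11 fell (-2.69 ± 0.71, and -1.16 without LF library 3) but did not pass in the fit of the other 12 libraries (-1.04, adjusted p = 0.107), and Crisp1 did not pass (-5.27 ± 2.08, adjusted p = 0.0514). Crisp1 was 2.23 without LF library 3 and -8.84 without HF library 1, and it passed without HF library 1 and in the 5 fits that left out 1 of the other LF libraries (adjusted p of 0.0174 to 0.0421). Smooth muscle markers summed to 602.1 to 1433 CPM in HF, against 6697 CPM in LF library 3 and at most 1142 CPM in the other LF libraries. Of 11 smooth muscle markers 7 fell and 1 rose, and 3 fell in the fit of the other 12 libraries.

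The other large falls rested mainly on LF libraries 4 and 5, and such genes were also high in HFLF library 4. Foxj1, the regulator of motile cilia, had at most 13.2 CPM in HF and 54.4 CPM in HFLF library 4, against 297 CPM in LF library 4, 104 CPM in LF library 5 and at most 0.411 CPM in the other LF libraries. Foxj1 did not pass (-4.76 ± 1.98, adjusted p = 0.0643) except without HF library 1 (-7.93, adjusted p = 0.0213). Hnf4a, an epithelial transcription factor, had at most 1.42 CPM in HF, against 79.9 and 47.9 CPM in LF libraries 4 and 5 and at most 5.43 CPM in the other LF libraries. Epcam, an epithelial adhesion protein, had at most 2.58 CPM in HF, against 125 and 51.1 CPM in LF libraries 4 and 5. The keratin Krt8 had at most 7.06 CPM in HF, against 192 and 96.8 CPM in LF libraries 4 and 5, and both genes fell. The difference of Epcam was -5.57, or -4.21 without LF library 4 and -6.96 without HF library 1, and that of Krt8 was -4.04, or -3.05 without LF library 4. In the fit of the other 12 libraries neither passed (adjusted p = 0.161 and 0.0958). Summed over 13 epithelial and cilium genes chosen after the values were seen, HF libraries held 17.36 to 44.93 CPM and HFLF library 4 held 575.3 CPM, against 2201 and 940.1 CPM in LF libraries 4 and 5 and 55.70 to 120.3 CPM in the other LF libraries. In the fit of the other 12 libraries Hnf4a, Cdhr5 and Pipox had the opposite sign without passing, at 0.42, 0.44 and 0.91, and Kcnk1 and Prom2 no longer passed, while Clic6 (-3.78, adjusted p = 0.000654), Ppp1r1b (-1.75), Wnk2 (-1.24) and Cnn1 (-2.55) still fell. Leaving out LF library 4 alone ended the call of Cdhr5 and Prom2 (-4.34 and -5.28, adjusted p = 0.0606 and 0.058) and brought Ppp1r1b to -5.66, Kcnk1 to -5.18, Clic6 to -5.42, Hnf4a to -4.81, Pipox to -4.46 and Wnk2 to -4.70. Prom2 also lost its call without HF library 3 or 4 (adjusted p = 0.051 and 0.0531). Without HF library 1 Prom2 stood at -8.67 and Kcnk1 at -7.47, and without HF library 3 Hnf4a at -6.94.

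Liver transcripts were highest in LF library 5 and were also high in LF libraries 3 and 4. Summed over 13 liver genes chosen after the values were seen, HF libraries held 10.12 to 232.7 CPM and HFLF libraries 14.55 to 353.8 CPM, against 1596, 840.4 and 464.1 CPM in LF libraries 5, 3 and 4 and 51.76 to 158.1 CPM in the other LF libraries. Of the 13 genes 6 fell and 0 rose, with a median of -2.73, which was 0.27 in the fit of the other 12 libraries. Alb, serum albumin, had 2.55 to 99.3 CPM in HF, against 666 CPM in LF library 5 and 27.6 to 296 CPM in the other LF libraries. Apoa1, the main protein of HDL, had 0.486 to 24.5 CPM in HF, against 171 CPM in LF library 5 and 3.0 to 99.5 CPM in the other LF libraries. Apoa1 did not pass (adjusted p = 0.0877). Alb passed (-2.63 ± 1.0, adjusted p = 0.0442), but not without any 1 of LF libraries 3, 4 and 5 and HF libraries 1, 2, 4 and 5 (adjusted p of 0.0528 to 0.148). Alb stood at -3.36 without HF library 3, at -1.78 without LF library 5 and at -0.0045 in the fit of the other 12 libraries.

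Sperm genes were high in single libraries of each diet and none passed the test. Prm2, the protamine that packs sperm DNA, had 333 CPM in HF library 1 and at most 18.4 CPM in the other HF libraries, 88.9 CPM in HFLF library 6, and 124 CPM in LF library 4, 44.8 CPM in LF library 5 and at most 35.8 CPM in the other LF libraries. Its difference was 0.69 ± 1.38 (adjusted p = 0.73) and -2.45 without HF library 1. The germ-cell lactate dehydrogenase Ldhc reached 170 CPM in HF library 1, 65.0 CPM in HFLF library 6 and 104 CPM in LF library 4. Tcp11, of the sperm tail, reached 165, 50.8 and 112 CPM in the same 3 libraries, and the transition protein Tnp2 reached 146 CPM in HF library 1, 97.7 CPM in HFLF library 6 and 40.7 CPM in LF library 2. Of 38 measured sperm and late germ cell genes 0 passed in edgeR, 0 had an unadjusted p under 0.05, and 0 passed in DESeq2 or limma voom. In the fit of the other 12 libraries 1 was higher and 3 were lower. Their sum was 2444 CPM in HF library 1 and 25.30 to 123.6 CPM in the other HF libraries, 863.3 CPM in HFLF library 6, and 1173 CPM in LF library 4 and 34.31 to 329.9 CPM in the other LF libraries. HF library 1 held Foxj1 at 13.2 CPM and Hnf4a at 0.0974 CPM, whereas LF library 4 held Foxj1 at 297 CPM and Hnf4a at 79.9 CPM beside its sperm genes.

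Of 81 epididymis genes listed 8 were in the table, since a gene needed a CPM above 0.5 in at least 6 libraries to be kept, and 0 of 11 seminal gland genes were. Of the 8, 2 fell and 0 rose, and 2 fell and 2 rose in the fit of the other 12 libraries. Sult1e1, estrogen sulfotransferase, which fat also makes, had 11.2 to 21.7 CPM in HF and 24.8 to 91.3 CPM in LF. Aqp9, a water and glycerol channel, had 4.55 to 5.99 CPM in HF, 28.2 and 18.1 CPM in LF libraries 4 and 5 and 2.91 to 9.52 CPM in the other LF libraries. Aqp9 did not pass (-1.08, adjusted p = 0.0855) and was higher in the fit of the other 12 libraries (0.61, adjusted p = 0.0205). Cst8, an epididymal cystatin, had 9.49 CPM in HF library 1 and at most 3.01 CPM in LF. In a count of genes with at least 5 CPM and over 10 times their median of the 18 libraries, HF library 1 held 437, HF library 3 107 and HF library 4 48, LF library 4 held 622, LF library 5 257 and LF library 3 99, and HFLF libraries 6 and 4 held 172 and 81. The other 10 libraries held 0 to 21. Of the genes of HF libraries 3 and 4, 99 and 46 were called higher in HF, and of those of LF libraries 3, 4 and 5, 53, 181 and 111 were called lower. The origin of the sperm, epithelial and liver transcripts was not tested.

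**Figure D5:**
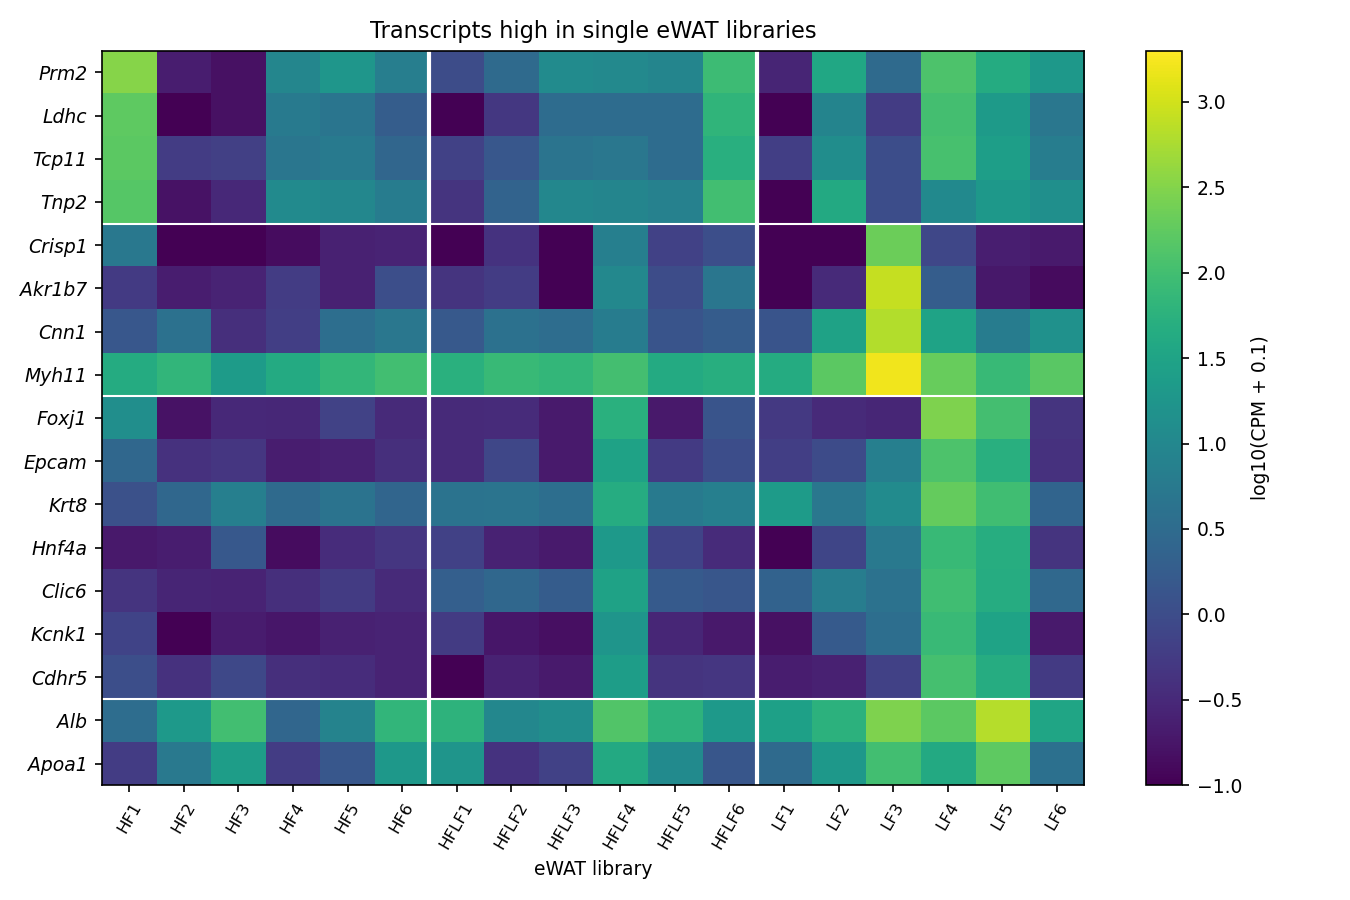
Level, as log10 of CPM + 0.1 (colour), of 17 genes in the 18 eWAT libraries, HF on the left, HFLF in the middle and LF on the right, with sperm genes at the top, the genes high in LF library 3 next, then epithelial genes and 2 liver genes. Sperm genes are bright in HF library 1, HFLF library 6 and LF library 4, epithelial genes in HFLF library 4 and LF libraries 4 and 5, and Akr1b7 reaches 842 CPM in LF library 3.

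Of the falls also called in the fit of the other 12 libraries, 3 were picked after the values were seen. Cyp2f2, a cytochrome P450, had 0.526, 1.56 and 2.82 CPM in HF, against 9.63, 50.8 and 147 CPM in LF (-5.27 ± 0.74, and -5.69 in that fit). Acsm3, a medium-chain acyl-CoA synthetase, had 0.364, 1.36 and 4.82 CPM in HF, against 7.15, 37.0 and 71.7 CPM in LF (-4.35 ± 0.69, and -4.13 in that fit). Adgrg2, an orphan adhesion receptor known from the epididymis, had 2.97, 8.10 and 19.3 CPM in HF, against 41.6, 67.7 and 397 CPM in LF (-3.81 ± 0.68), and its difference was -3.06 without LF library 4 and -2.47 in that fit. For the 3 genes the groups did not overlap, and Acsm3 stood at -4.94 without HF library 5.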

How the data were processed

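RNA extracted from eWAT was sequenced on an Illumina instrument. The submitters' processing notes name STAR, without its version, and the GRCm38.p6 build. No source used here names the counting tool or strand setting. The authors deposited raw whole-number counts per gene, not normalized. In their table every gene exceeded 0.5 CPM in 6 or more of the 18 eWAT libraries. Symbols and positions came from GENCODE M21 for 16674 of 16690 genes. The liver tables and a deposited RPKM table of eWAT were not used.

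The 18 libraries, grouped by 3 diets, entered 1 robust quasi-likelihood fit with TMM factors (edgeR 4.0.16, R 4.3.3). The fit was checked on simulated counts with known changes in far fewer genes than were called here. Each gene was drawn alone, so transcripts of another tissue carried together into 1 library were not simulated. That check therefore does not cover calls that rest on such libraries. HF was contrasted with LF, and p-values were adjusted over the whole table (Benjamini-Hochberg) with a threshold of 0.05. Named genes were the 10 largest rises and falls with a mean log2 CPM of 2 or more, members of each list with the smallest p (up to 4), a set of adipose genes, and the epididymis and sperm genes highest in any library. Predicted and immunoglobulin or T cell receptor segment genes were left out of the rises and falls, and not every gene the rule names is described. Other genes are named after their values were seen. The members and lists were chosen with earlier results of these data known. Alternatives were other scalings, DESeq2 1.42.0, limma 3.58.1 (voom with quality weights), stricter filters, the HF and LF libraries alone, the replicate number as a block, removal of 46 epididymis and sperm genes, each library left out in turn, and the 6 libraries with genes of other tissues left out. The highest correlation between libraries was 0.98724, so none was a near copy.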

Additional observations from a re-analysis of the deposited data

Results flagged for a closer look

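In groups of 6 libraries, a library was singled out where its gap to the nearest other library, on the log2 scale, exceeded the share of its group's range that Dixon's test sets for 6 values. Of 406 groups examined (169 named genes and 34 summed lists, in HF and LF) 16 had such a library, or 3.94%, where chance alone gives about 1 in 20.

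In the HF group, HF library 1 stood apart for summed sperm genes (2444 CPM) and for Foxj1 (13.2 CPM), Crisp1 (5.16 CPM), Epcam (2.58 CPM) and Prom2 (1.46 CPM), all above the other HF libraries, and for Col4a6 (2.48 CPM), below them. HF library 5 was lowest for Ubd (31.1 CPM) and HF library 6 lowest for Mertk (42.4 CPM).

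In the LF group, LF library 3 stood above the rest for Akr1b7 (842 CPM), Crisp1 (218 CPM), summed smooth muscle markers (6697 CPM) and Mitf (24.1 CPM). LF library 4 was lowest for summed genes of MHC and antigen presentation (6085 CPM) and LF library 5 lowest for summed clock genes (950.3 CPM). LF library 2 was lowest for Trem2 (2.83 CPM) and LF library 6 lowest for Ccl22 (0.237 CPM).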

How the results depend on the processing

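edgeR called 5845 to 7113 genes (3051 to 3568 higher, 2794 to 3545 lower) when 1 library at a time was left out, and no alternative moved these totals by over 1.5 times. With the replicate number as a block it called 6394 genes, 3353 higher and 3041 lower. Between HF and LF, 1 of 6 libraries correlated best with its own number (r of -0.569 to 0.283). The labels do not say whether libraries of equal number belong together. This correlation cannot decide it, because it spans all genes, those of other tissues included. Upper-quartile factors gave 3051 higher and 3911 lower calls, DESeq2 3661 and 3712, voom 3283 and 2928, and the HF and LF libraries alone 2988 and 2612.

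With all libraries, list counts moved by over 1.5 times at a mean CPM of at least 5 (2 T and NK cell markers higher), with voom (0 smooth muscle markers lower) and with the block (3). Without the 6 libraries with genes of other tissues 10 chemokines and cytokines, 8 unfolded protein response, 1 sperm and 2 microRNA processing genes were higher, and 5 clock and 3 smooth muscle genes were lower. With 1 library left out, 5 to 13 interferon genes were higher and 2 to 4 epididymis genes were lower. The cause was not tested.

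Medians that changed sign were those of sperm genes (-0.522 with voom, -1.69 with the block, -2.85 to 1.67 with 1 library left out, -1.22 without the 6 libraries with genes of other tissues), epididymis genes (0.18 without those libraries) and microRNA processing genes (-0.00975 with upper-quartile factors). Among the 169 named genes counted here, the sign changed without those libraries for Akr1b7 (2.34; 0.10 with voom), Hnf4a (0.42), Cdhr5 (0.44), Pipox (0.91), Apoa1 (0.25), Crisp1 (0.55; -8.84 to 2.23 with 1 library left out) and Prm2 (-1.41; -1.07 with voom, -1.79 with the block, -2.45 without HF library 1). Of the sperm and epididymis genes described above but not counted among the 169, Aqp9 (0.61), Cst8 (-0.975), Ldhc (-0.911), Tcp11 (-1.19) and Tnp2 (-1.69) also changed sign in that fit. Of the values of the 169 counted genes in that fit 139 kept direction and side of the threshold, and 1459 of 1508 did under the other settings with all libraries. Depth limits the precision of genes near or under 1 CPM.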
